A study of Mus musculus with 40 samples.

Results

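Oocytes of primary follicles were compared with oocytes of secondary follicles in the mouse. The samples were those whose titles name either follicle stage, 16 of the 40 samples of the series: 4 primary and 4 secondary samples on the 430A array and 4 and 4 on the 430B array, Affymetrix array types that carry different probe sets. Each primary sample pooled 90 oocytes from 6-day-old SJLB6 females and each secondary sample 60 oocytes from 12-day-old SJLB6 females. The series also holds primordial follicle oocytes, left out here, and small and large antral follicle oocytes (17 and 24 days of age, pools of 30 and 20), whose arrays entered the same fit. For 3 of the 4 small antral 430B samples, replicates 2 to 4, the protocols give the age and pool of the secondary stage (12 days, 60 oocytes) under titles that name the small antral stage, and the titles were followed. The age of the mice and the size of the pool changed together with the follicle stage and cannot be told apart from it. The study describes its replicates as biological without saying which animals gave each pool, so p-values measure only the spread between these samples.

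A primary follicle is an oocyte inside a single layer of cuboidal granulosa cells. In a secondary follicle the oocyte has grown and lies inside several granulosa layers, and a theca layer begins to form outside. During this phase the oocyte lays down the zona pellucida, secretes growth factors that act on its granulosa cells, is coupled to them through gap junctions, and stores messenger RNA and protein for meiosis and for the early embryo while it stays arrested in meiotic prophase. The arrays report each transcript relative to a fixed total per array, so a fall below can be less RNA per oocyte or a smaller share of a growing pool. In pooled oocytes, fewer cells with a transcript and less of it per cell cannot be told apart.

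Signals were scaled to a trimmed mean of 500 on each array, and a change is the difference of log2(signal + 32), secondary minus primary, with its standard error (SE) from limma. A probe set was called when its Benjamini-Hochberg adjusted p was under 0.05 within its array type, and "rose" and "fell" are used for called probe sets only. Of 14924 probe sets tested on 430A, 3088 were called (20.7%), 1686 as rises (11.3%) and 1402 as falls (9.39%). Of 17887 on 430B, 1028 were called (5.75%), 644 as rises (3.6%) and 384 as falls (2.15%). The SE of a change had a median of 0.16 on 430A but of 0.34 on 430B, where a change had to be larger to be called. Replicates correlated at 0.962 to 0.976 on 430A and at 0.882 to 0.902 on 430B, and primary with secondary samples at 0.936 to 0.958 and at 0.866 to 0.890. Changes of at least 2-fold were called for 359 probe sets on 430A (2.41%; 211 rises, 1.41%, and 148 falls, 0.992%) and for 289 on 430B (1.62%; 200 rises, 1.12%, and 89 falls, 0.498%). The 4 and 4 values did not overlap for 3412 probe sets on 430A (22.9%) and for 2034 on 430B (11.4%).

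**Figure D1:**
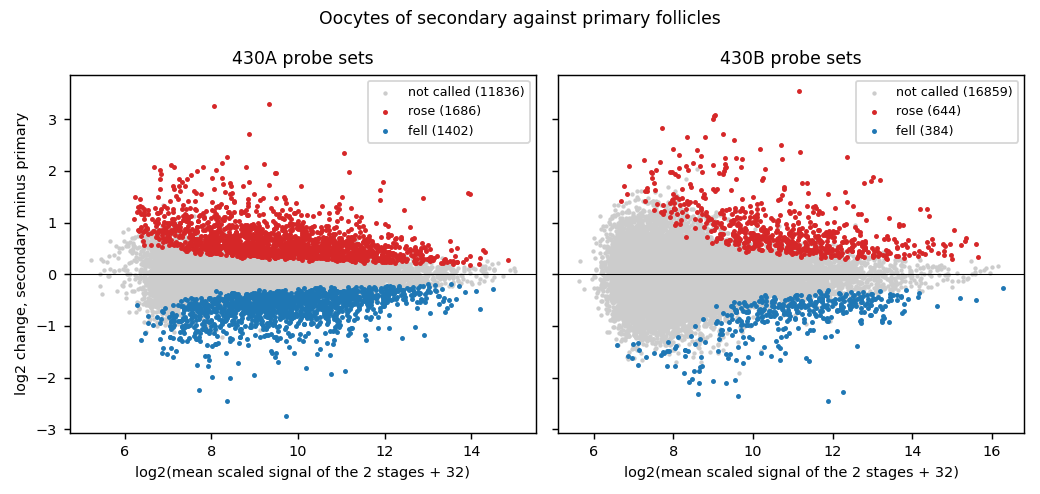
Change from primary to secondary follicle oocytes (y axis, log2 of signal + 32) against the mean scaled signal of the 2 stages (x axis, log2), for every tested probe set of 430A (left) and 430B (right). Red points rose, blue points fell and grey points were not called; on 430B the grey cloud is wider at low signals, and fewer points are called.

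With 1 probe set per gene (the one with the highest mean signal, 430A before 430B), 14925 genes were tested and 2627 were called (17.6%), of which 1583 rose (10.6%) and 1044 fell (6.99%). Among them 374 changed at least 2-fold (2.51%), 251 upwards (1.68%) and 123 downwards (0.824%). For the 9193 genes represented on 430A, 22.4% were called, 13.1% as rises and 9.37% as falls. The share called was higher at higher signal, from 2.76% rising and 2.79% falling in the 3732 genes of lowest mean signal to 21.2% and 11.1% in the 3731 genes of highest mean signal. The median change over all genes was 0.0072.

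Both stages carried the defining markers of oocytes. All 13 oocyte markers on 430A, among them Zp1, Zp2, Zp3, Gdf9, Ddx4 and Dazl, reached a signal of 100, and their summed signal was 144054 to 147890 in the primary samples and 147111 to 159764 in the secondary samples. Of the 14 markers on either array type 4 rose (Bmp15, H1f8, Gdf9 and Oosp1) and 2 fell (Figla and Kit), with values given below. Of 15 granulosa markers on 430A, 9 stayed below 100 in all 8 arrays of the comparison. The summed signal of all 15 was 1494 to 1769 in the primary and 2126 to 2382 in the secondary samples. On 430B all 6 granulosa markers reached 100 in at least 1 sample of each stage. These 6 summed to 2933 to 4457 and 3084 to 3713, with Foxl2 at means of 2111 and 1729. On 430A, theca, stroma and fibroblast markers summed to 1013 to 1332 and 915 to 1391 and endothelial markers to 726 to 850 and 825 to 1049. Blood markers on 430A summed to 810.3 to 1431 and 932 to 1111. No member was called in any of these 3 lists.

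The largest rises on 430A included a plasma protein, nucleotide enzymes and a regulator of growth factor signalling. Hp (probe set 1448881_at) encodes haptoglobin, which binds free haemoglobin. It read 17.2, 17.8, 10.6 and 26.8 in the primary samples and 365, 446, 473 and 512 in the secondary samples. Hp rose by 3.26 ± 0.15 in log2 signal (adjusted p = 1.4e-11). Ampd2 (1438941_x_at), an AMP deaminase, read 83.6, 138, 70.8 and 84.7 in the primary samples and 863, 660.2, 822 and 786 in the secondary samples. Ampd2 rose by 2.71 ± 0.14 in log2 signal (adjusted p = 7.2e-11). Every secondary sample lay several times above every primary sample for both genes. Upp1 (1448562_at), the uridine phosphorylase that splits uridine into uracil and ribose phosphate, read 663, 619.8, 626 and 729 in the primary samples and 3992, 3125, 3124 and 3849 in the secondary samples. Upp1 rose by 2.36 ± 0.12 in log2 signal (adjusted p = 7.2e-11). Dab2 (1420498_a_at), an endocytic adaptor, read 219, 140.5, 182 and 206 in the primary samples and 838, 732, 1227 and 949 in the secondary samples. Dab2 rose by 2.13 ± 0.14 in log2 signal (adjusted p = 2.3e-09). Spry4 (1422021_at), a Sprouty inhibitor of receptor tyrosine kinase signalling, read 133, 158, 169 and 102 in the primary samples and 623, 704, 722 and 701 in the secondary samples. Spry4 rose by 2.08 ± 0.12 in log2 signal (adjusted p = 5.4e-10). These secondary samples again lay wholly above the primary ones, although 2 further 430A probe sets of Dab2 were not called (0.39 ± 0.15, adjusted p = 0.077 and -0.30 ± 0.20, adjusted p = 0.31).

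The remaining large 430A rises started from dim signals in the primary samples. They were Tctex1d1, a dynein light chain gene (2.27 ± 0.16, adjusted p = 4.1e-09), Gtf2ird1, of the TFII-I transcription factor family (2.16 ± 0.22, adjusted p = 9.4e-07), Lrrc4, a synaptic adhesion protein (2.11 ± 0.23, adjusted p = 1.9e-06), and Zfp418 (2.09 ± 0.34, adjusted p = 1.8e-04). S100a14, an S100 calcium-binding protein (2.07 ± 0.23, adjusted p = 2.7e-06), Scin, the actin-severing protein scinderin (2.02 ± 0.16, adjusted p = 2.7e-08), and Gpd2, the mitochondrial glycerol-3-phosphate dehydrogenase (2.02 ± 0.30, adjusted p = 6.3e-05), completed the 12 largest. S100a14 read 4.96, 11.6, 5.29 and 5.95 in the primary samples and 155, 120.5, 134 and 117 in the secondary samples. Gpd2 read 13.9, 16.2, 6.61 and 11.6 in the primary samples and 204, 106, 145 and 143 in the secondary samples. Both lists of primary values lie where the added 32 understates the fold change. The 430B probe sets of Gpd2 were not called (0.80, adjusted p = 0.11 and -0.33, adjusted p = 0.82). The groups of the 12 did not overlap because only such probe sets were chosen.

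The largest falls on 430A were led by Maged1 (1450062_a_at), a member of the MAGE family, which read 1077, 1493, 1341 and 1794 in the primary samples and 117, 192, 232 and 205 in the secondary samples. Maged1 fell by 2.75 ± 0.21 in log2 signal (adjusted p = 2.1e-08). Armcx3 (1460359_at), an armadillo-repeat protein of the mitochondrial surface, read 470.0, 509, 398 and 688 in the primary samples and 66.8, 18.9, 98.5 and 110.1 in the secondary samples. Armcx3 fell by 2.45 ± 0.29 in log2 signal (adjusted p = 6e-06). Malat1 (1418189_s_at), a nuclear long noncoding RNA, read 285, 306, 346 and 303 in the primary samples and 74.1, 26.1, 29.1 and 42.0 in the secondary samples. Malat1 fell by 2.23 ± 0.32 in log2 signal (adjusted p = 5.2e-05). The highest secondary sample was below the lowest primary sample in each case, as the choice required. Malat1 fell on its other probe sets too (-0.62 ± 0.21, adjusted p = 0.041 on 430A and -1.16 ± 0.26, adjusted p = 0.0069 on 430B), whereas the other Armcx3 probe set was not called (-0.22 ± 0.21, adjusted p = 0.51).

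H2-D1, a class I histocompatibility gene, fell on all 3 of its 430A probe sets. Probe set 1425545_x_at read 723, 758, 691 and 912 in the primary samples and 195, 184, 175 and 151 in the secondary samples. H2-D1 fell by 1.95 ± 0.20 in log2 signal (adjusted p = 1e-06). Probe sets of this type can also hybridise to related class I transcripts, so the gene behind the signal is uncertain. Hadh (1455972_x_at), the mitochondrial hydroxyacyl-CoA dehydrogenase of fatty acid oxidation, read 1683, 1651, 1962 and 1805 in the primary samples and 556, 568, 486 and 351 in the secondary samples. Hadh fell by 1.81 ± 0.21 in log2 signal (adjusted p = 2.9e-06), and its other probe set fell alike (-1.67 ± 0.18, adjusted p = 1.7e-06). Myot (1418155_at), the sarcomere protein myotilin, read 2399, 2887, 2644 and 3003 in the primary samples and 773, 656, 599 and 732 in the secondary samples. Myot fell by 1.94 ± 0.11 in log2 signal (adjusted p = 5.4e-10). Arih2 (1454802_x_at), a ubiquitin ligase, read 3195, 3272, 3421 and 3523 in the primary samples and 981, 1001, 611 and 1048 in the secondary samples. Arih2 fell by 1.87 ± 0.16 in log2 signal (adjusted p = 8.6e-08). No secondary sample reached the lowest primary sample for any of the 3 genes, as the choice required.

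Rimklb, a ligase that joins amino acids to citrate or N-acetylaspartate, fell on 2 probe sets (-1.99 ± 0.36, adjusted p = 4.6e-04 and -1.21 ± 0.29, adjusted p = 0.0046) and was not called on another (-0.05 ± 0.19, adjusted p = 0.89). Dner, a transmembrane Notch ligand of neurons, fell by 1.77 ± 0.22 (adjusted p = 9.4e-06), and the uncharacterised C130026I21Rik by 1.76 ± 0.29 (adjusted p = 2.0e-04). Bex1, a small X-linked gene first known from the brain, read 449.6, 567, 588 and 648 in the primary samples and 139, 97.9, 174 and 196 in the secondary samples. Bex1 fell by 1.72 ± 0.18 in log2 signal (adjusted p = 1.6e-06). A list of 11 tested genes held Bex and Maged genes beside Tceal8, Tceal9, Mageb16, Mageh1 and Trap1a, and was chosen with earlier results of these data known. Of the 11, 4 fell, each at least 2-fold, and 1 rose. Over all genes 6.99% fell, 0.824% at least 2-fold, and 10.6% rose. Beside Maged1 and Bex1 the falls were Trap1a (-1.25 ± 0.28, adjusted p = 0.0032) and Bex3 (-1.11 ± 0.30, adjusted p = 0.013), and the rise was Tro, also called Maged3 (0.44 ± 0.12, adjusted p = 0.012). The median change of the 11 was -0.07.

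On 430B the rises were larger. Tex26 (1430620_at), named for its expression in testis, read 424, 464, 284 and 195 in the primary samples and 4551, 3977, 3427 and 4777 in the secondary samples. Tex26 rose by 3.55 ± 0.18 in log2 signal (adjusted p = 1.2e-10). Fam162b (1453496_at) read 62.3, 76.2, 144 and 49.4 in the primary samples and 920.1, 1029, 867 and 796 in the secondary samples. Fam162b rose by 3.08 ± 0.19 in log2 signal (adjusted p = 9.5e-10). Defb41 (1440767_at), a beta-defensin of the antimicrobial peptide family, read 31.8, 198, 54.3 and 72.5 in the primary samples and 1182, 618, 724 and 1021 in the secondary samples. Defb41 rose by 3.05 ± 0.28 in log2 signal (adjusted p = 3.8e-07). The lowest secondary sample exceeded the highest primary sample for each of them, as the choice required. Ccbe1 (1437385_at), a secreted protein needed for lymphatic vessel growth, read 104, 60.3, 107 and 58.7 in the primary samples and 711, 833, 1016 and 947 in the secondary samples. Ccbe1 rose by 3.01 ± 0.19 in log2 signal (adjusted p = 1.3e-09), while its 3 other 430B probe sets were not called (0.54 ± 0.38, 0.14 ± 0.24 and 0.03 ± 0.34). Klhl29, a kelch protein (2.83 ± 0.39, adjusted p = 6.7e-05), and Cldn9, a claudin of tight junctions (2.66 ± 0.55, adjusted p = 0.0038), followed. Cldn9 read 32.9, 30.8, 261 and 9.32 in the primary samples and 443, 507, 463 and 595 in the secondary samples, with 1 primary sample far above the other 3, and its 430A probe set was not called (0.20 ± 0.37, adjusted p = 0.76).

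The largest 430B fall was Zfp618 (1455591_at), a zinc finger gene, which read 6865, 6796, 6179.9 and 5481 in the primary samples and 1041, 1229, 1180.2 and 1091 in the secondary samples. Zfp618 fell by 2.44 ± 0.12 in log2 signal (adjusted p = 1.2e-10). A pair of further Zfp618 probe sets fell as well (-1.53 ± 0.14, adjusted p = 4.2e-07 and -0.91 ± 0.16, adjusted p = 0.0012). Dpp9 (1455884_at), a cytoplasmic dipeptidyl peptidase, read 1287, 1417, 1169 and 1207 in the primary samples and 168, 264, 376 and 140.4 in the secondary samples. Dpp9 fell by 2.35 ± 0.32 in log2 signal (adjusted p = 6.1e-05). Zfp618 and Dpp9 showed no overlap between the stages, as the choice required. BC034090 (-2.32 ± 0.46, adjusted p = 0.0029), the zinc finger gene Zfp451 (-2.11 ± 0.41, adjusted p = 0.0021), Gnaz, a G protein alpha subunit (-2.08 ± 0.46, adjusted p = 0.0067), and Bckdk, the kinase that switches off branched-chain ketoacid dehydrogenase (-2.06 ± 0.53, adjusted p = 0.02), completed the list. On 430A, Zfp451 (-0.06 ± 0.11, adjusted p = 0.78), Gnaz (-0.28 ± 0.16, adjusted p = 0.26) and Bckdk (-0.20 ± 0.16, adjusted p = 0.41) were not called. For Bckdk the call was lost without primary replicate 3 or 4 or secondary replicate 1 or 3 (adjusted p from 0.062 to 0.087) and with eBayes without trend (adjusted p = 0.074).

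**Figure D2:**
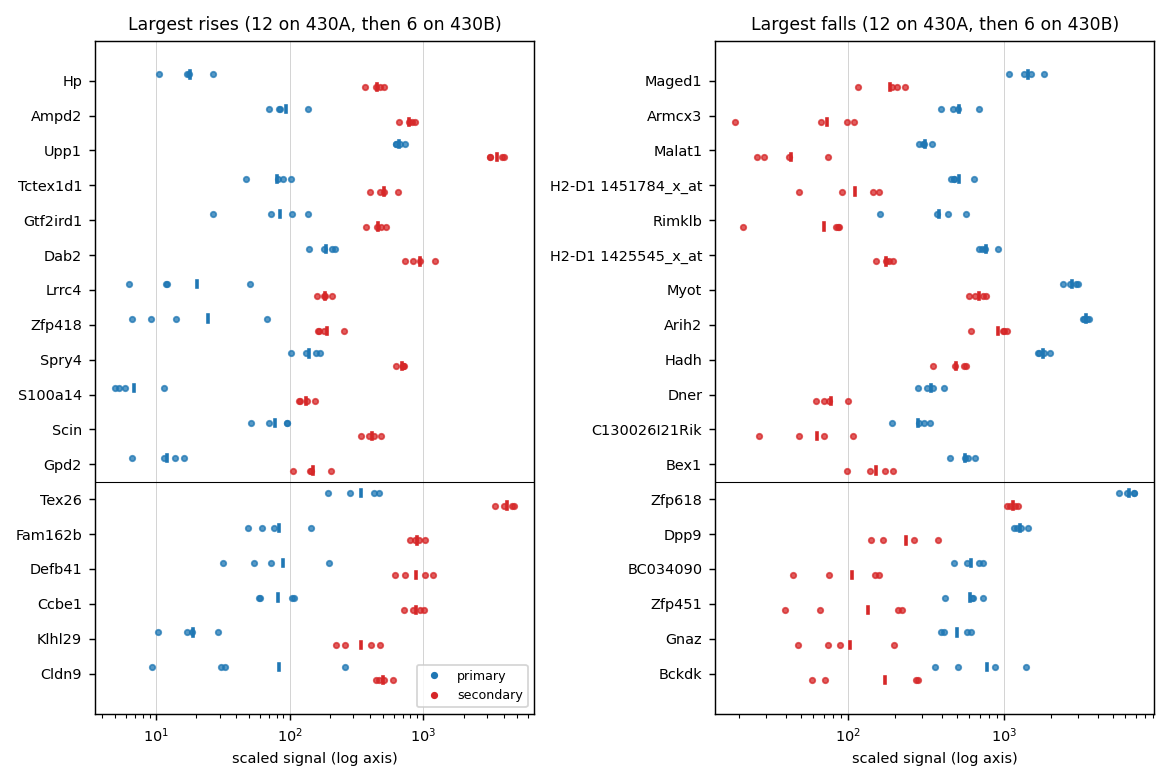
Scaled signals (x axis, log scale) of the 18 largest rises (left) and 18 largest falls (right), with 430A genes above the line and 430B genes below it. Points are the 4 primary (blue) and 4 secondary (red) samples and vertical ticks their means; the colours do not overlap in any row, since genes without overlap were chosen.

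The sequences just upstream of the genes with the largest changes are shown so that their base composition can be seen beside the direction of change. They are the 250 bases before the annotated start in RefSeq (GRCm38.p6), 5′ to 3′ on the gene's strand, for the 3 largest rises and the 3 largest falls named above that had a single annotated start in the table. CG dinucleotides, the sites of DNA methylation, are in capitals.
Tex26, chr5:149439410-149439659, plus strand: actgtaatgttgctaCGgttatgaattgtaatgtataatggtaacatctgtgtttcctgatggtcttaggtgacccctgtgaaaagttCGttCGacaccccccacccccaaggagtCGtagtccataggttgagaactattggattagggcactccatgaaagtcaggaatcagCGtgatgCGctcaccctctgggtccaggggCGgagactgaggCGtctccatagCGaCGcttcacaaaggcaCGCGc
Fam162b, chr10:51590461-51590710, minus strand: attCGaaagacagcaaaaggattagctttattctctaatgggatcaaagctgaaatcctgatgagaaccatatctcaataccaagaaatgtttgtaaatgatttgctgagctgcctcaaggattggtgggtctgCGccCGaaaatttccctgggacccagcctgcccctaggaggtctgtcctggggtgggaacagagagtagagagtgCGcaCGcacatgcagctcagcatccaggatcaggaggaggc
Defb41, chr1:18265139-18265388, minus strand: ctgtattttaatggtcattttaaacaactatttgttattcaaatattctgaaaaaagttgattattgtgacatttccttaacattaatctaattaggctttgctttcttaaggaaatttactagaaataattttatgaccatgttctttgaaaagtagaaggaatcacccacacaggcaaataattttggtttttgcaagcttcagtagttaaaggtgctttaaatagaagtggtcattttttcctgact
Maged1, chrX:94542026-94542275, minus strand: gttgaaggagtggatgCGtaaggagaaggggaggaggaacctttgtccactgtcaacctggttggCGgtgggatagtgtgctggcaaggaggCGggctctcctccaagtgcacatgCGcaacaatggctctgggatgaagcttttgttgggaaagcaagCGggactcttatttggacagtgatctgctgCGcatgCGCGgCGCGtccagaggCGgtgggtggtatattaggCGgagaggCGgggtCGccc
Zfp618, chr4:62965317-62965566, plus strand: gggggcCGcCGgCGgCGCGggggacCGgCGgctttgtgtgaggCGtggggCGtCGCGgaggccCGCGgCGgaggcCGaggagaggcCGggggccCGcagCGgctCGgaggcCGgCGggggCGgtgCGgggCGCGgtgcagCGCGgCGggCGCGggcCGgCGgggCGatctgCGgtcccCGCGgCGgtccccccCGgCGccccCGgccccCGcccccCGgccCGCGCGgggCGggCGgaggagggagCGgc
Dpp9, chr17:56218890-56219139, minus strand: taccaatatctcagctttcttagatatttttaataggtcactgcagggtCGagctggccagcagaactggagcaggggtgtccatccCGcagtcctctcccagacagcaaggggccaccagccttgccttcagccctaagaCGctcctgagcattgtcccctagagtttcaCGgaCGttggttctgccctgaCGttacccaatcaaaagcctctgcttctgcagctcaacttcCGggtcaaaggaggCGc

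Among the rising genes, Tex26 had 12 CG dinucleotides in this window, Fam162b 5 and Defb41 0. Among the falling genes, Maged1 had 14, Zfp618 48 and Dpp9 8. Over all genes that rose at least 2-fold, 159 of 251 had a single promoter in the table, with a median of 6 CG dinucleotides, and 38.4% of them held fewer than 5. Over the genes that fell at least 2-fold, 73 of 123 had one, with a median of 17, and 8.22% held fewer than 5. The 9575 promoters of tested genes had a median of 14 (18.6% with fewer than 5), and all 22862 promoters a median of 5 (45.8%). No test was made of these differences, and the start sites used in oocytes were not measured here.

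Motifs were searched on both strands of the same windows. The E-box CANNTG, in which N is any base and which basic helix-loop-helix factors such as Figla and Sohlh1 recognise, was found in 65.4% of promoters of rising genes, 50.7% of falling genes, 59.6% of tested genes and 66.3% of all promoters. TAATTG, a core recognised by homeodomain proteins of the Nobox and Lhx8 kind, was found in 8.18%, 1.37%, 4.76% and 7.48%. The TATA box letters TATAAA were found in 11.9%, 5.48%, 8.03% and 13.6%. These are matches of letters and do not show binding.

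The zona pellucida is the glycoprotein coat laid down around the growing oocyte. None of its 3 genes was called. Zp1 read 17915, 14988, 16378 and 15004 in the primary samples and 16198, 14073, 14543 and 13577 in the secondary samples. The change of Zp1 was -0.14 ± 0.09 in log2 signal (adjusted p = 0.3). Zp2 read 21572, 19562, 20926 and 19639 in the primary samples and 20767, 21707, 18703 and 19476 in the secondary samples. The change of Zp2 was -0.02 ± 0.06 in log2 signal (adjusted p = 0.87). Zp3, which encodes a zona protein first known as a sperm receptor, read 23138, 22987, 23065 and 21904 in the primary samples and 28128, 22657, 22992 and 23596 in the secondary samples. The change of Zp3 was 0.09 ± 0.08 in log2 signal (adjusted p = 0.5). The groups overlapped for each gene.

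Among 9 tested growth factor genes that the oocyte can secrete, 4 rose and 1 fell, with a median change of 0.27. Bmp15, a TGF-beta family ligand that acts on granulosa cells, read 901, 947, 1269 and 1276 in the primary samples and 2467, 2031, 1595 and 1997 in the secondary samples. Bmp15 rose by 0.86 ± 0.15 in log2 signal (adjusted p = 2.4e-04). Its partner Gdf9 read 26943, 26567, 25337 and 28478 in the primary samples and 34169, 33393, 32624 and 29309 in the secondary samples. Gdf9 rose by 0.27 ± 0.07 in log2 signal (adjusted p = 0.01). Neither gene's groups overlapped, but the sizes differed: the Gdf9 rise was small, and the call was lost with all 20 arrays, with no filter and with eBayes without trend (adjusted p from 0.062 to 0.063). On 430B the Bmp15 probe sets 1420005_s_at (0.14 ± 0.13, adjusted p = 0.7) and 1420006_at (0.47 ± 0.26, adjusted p = 0.42) were not called. Fgf8, a fibroblast growth factor of the oocyte, rose (0.46 ± 0.13, adjusted p = 0.014), and so did Tgfb2 (0.40 ± 0.09, adjusted p = 0.0038), although the call was lost with all 20 arrays (adjusted p = 0.092) and the other Tgfb2 probe sets were not called. Bmp6, another TGF-beta family ligand, read 3423 to 3666 in the primary samples and 2596 to 2935 in the secondary samples. Bmp6 fell by 0.36 ± 0.09 in log2 signal (adjusted p = 0.0089).

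The transcription regulators of the oocyte moved in both directions: of 20 tested, 3 rose and 4 fell, 2 of each at least 2-fold. Sohlh1, a helix-loop-helix factor needed for early follicle growth, read 3743, 4037, 4093 and 3479 in the primary samples and 1231, 1225, 1464 and 1005 in the secondary samples. Sohlh1 fell by 1.62 ± 0.15 in log2 signal (adjusted p = 4.2e-07). Figla, the helix-loop-helix factor that activates the zona genes, read 2208, 2588, 2433 and 2937 in the primary samples and 1362, 1355, 1353 and 1309.6 in the secondary samples. Figla fell by 0.90 ± 0.12 in log2 signal (adjusted p = 1.5e-05). Sohlh2, the partner of Sohlh1, also fell (-0.77 ± 0.15, adjusted p = 0.0029). Antral levels are given as mean ± standard deviation (SD) of 4 samples, small antral before large antral. They were 525 ± 99.7 and 622 ± 102 for Sohlh1 and 800.1 ± 135 and 614 ± 58.6 for Figla, below the secondary levels. Stat3, a cytokine-activated factor, fell on 2 of its 3 tested 430A probe sets (-1.29 ± 0.14, adjusted p = 2.1e-06 and -1.45 ± 0.15, adjusted p = 9.4e-07) and was not called on the third (0.09 ± 0.21, adjusted p = 0.82).

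Obox2, an oocyte-specific homeobox gene, read 6766, 8148, 7917 and 8043 in the primary samples and 24269, 23846, 22216 and 22147 in the secondary samples. Obox2 rose by 1.58 ± 0.08 in log2 signal (adjusted p = 7.2e-11). Obox5 read 13155, 15724, 13485 and 12396 in the primary samples and 31400.1, 24851, 30697 and 32182 in the secondary samples. Obox5 rose by 1.12 ± 0.12 in log2 signal (adjusted p = 3.1e-06). Both were well apart between stages, but the Obox genes are a family of near-identical copies, and probes may read more than 1 of them. Basp1 rose by 0.45 ± 0.10 (adjusted p = 0.0037). Nobox, a homeobox factor required in early follicles, read 3794, 3745, 4362 and 4056 in the primary samples and 4815, 5299.8, 4877 and 4389 in the secondary samples (0.28 ± 0.11, adjusted p = 0.073) and was not called, without overlap of its groups; with only the 8 arrays of the comparison in the fit its adjusted p was 0.033. Lhx8 (-0.12 ± 0.09, adjusted p = 0.41) and the forkhead factor Foxo3, which restrains follicle activation (-0.22 ± 0.15, adjusted p = 0.37), were not called. With only the 8 arrays in the fit 5 regulators rose.

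**Figure D3:**
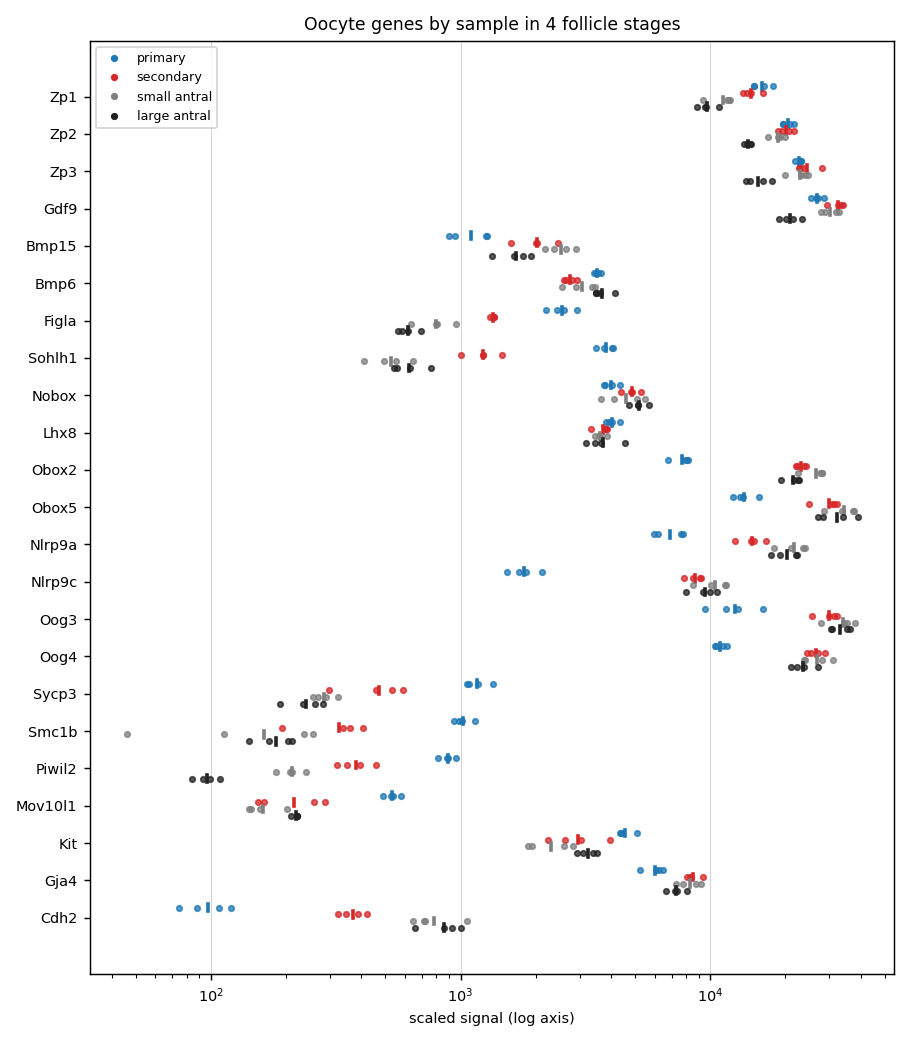
Scaled signal (x axis, log scale) of 23 oocyte genes in the 4 primary, 4 secondary, 4 small antral and 4 large antral samples, with ticks at the means. The zona genes lie together across primary and secondary samples, whereas Sohlh1, Figla, Sycp3, Smc1b, Piwil2 and Mov10l1 lie lower in the secondary samples and the Obox, Nlrp9 and Oog genes higher.

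Kit, the receptor for the granulosa-cell ligand, signals through PI3 kinase in the oocyte. Kit read 4340.1 to 5071 in the primary samples and 2230.2 to 3955 in the secondary samples. Kit fell by 0.64 ± 0.15 in log2 signal (adjusted p = 0.0036), and its second probe set was not called (-0.42 ± 0.17, adjusted p = 0.08). Of 21 tested genes of this pathway 2 rose and 3 fell, a share near the background, and 1 rose and 1 fell without secondary replicate 1. Of the complex of Tsc1 and Tsc2, which holds back mTOR, Tsc1 rose (0.59 ± 0.10, adjusted p = 1.8e-04) and Tsc2 fell (-0.79 ± 0.23, adjusted p = 0.016). The other Tsc1 probe sets were not called (-0.05, adjusted p = 0.88 on 430A and 0.16, adjusted p = 0.9 on 430B). Akt2, a kinase of the pathway, fell (-0.59 ± 0.18, adjusted p = 0.025), and Grb2, an adaptor of receptor tyrosine kinases, rose (0.34 ± 0.11, adjusted p = 0.035) with overlapping groups. For Tsc2 the call was lost without secondary replicate 1 (adjusted p = 0.068), and for Grb2 the call was lost without primary replicate 2 or 3 or 4 or secondary replicate 1 or 2 or 4 (adjusted p from 0.06 to 0.11) and with only the 8 arrays compared in the fit (adjusted p = 0.085).

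Of 13 tested genes for contact with the granulosa cells, the connexins, cadherins and proteins of the projections that cross the zona, 2 rose and 3 fell. Cdh2, N-cadherin, read 74.4, 87.6, 108 and 121 in the primary samples and 348, 323, 422 and 388 in the secondary samples. Cdh2 rose by 1.64 ± 0.16 in log2 signal (adjusted p = 5.1e-07), and its second probe set rose alike (1.05 ± 0.12, adjusted p = 2e-06). Gja4, connexin 37, the gap junction subunit of the oocyte, read 5217, 6472, 6216 and 6046 in the primary samples and 8368, 8109.8, 9338 and 8324 in the secondary samples. Gja4 rose by 0.51 ± 0.09 in log2 signal (adjusted p = 2.8e-04). Both rose without overlap. Gjb2, connexin 26, fell (-0.65 ± 0.13, adjusted p = 0.0016), as did Myo10, the myosin of filopodia (-0.59 ± 0.13, adjusted p = 0.0022), and the formin Daam1 (-0.41 ± 0.12, adjusted p = 0.047). Gja1, connexin 43, the granulosa-cell connexin, read 42.3 to 97.2 in the primary samples and 8.59 to 106 in the secondary samples and was not called (0.06 ± 0.30, adjusted p = 0.92).

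Few genes of the 2 lists of meiotic prophase were called, and all of these but Msh4 fell. The recombination list was not above the shares over all genes, 6.99% falling and 10.6% rising. Of 13 tested genes of the synaptonemal complex and meiotic cohesin, which hold homologous chromosomes together, 3 fell and none rose, with a median of -0.16. Smc1b, a meiotic cohesin subunit, read 1015, 937, 988 and 1140.0 in the primary samples and 193, 359, 407 and 339 in the secondary samples. Smc1b fell by 1.60 ± 0.29 in log2 signal (adjusted p = 5.7e-04). Sycp3, of the lateral element, read 1064, 1350.0, 1173 and 1083 in the primary samples and 458, 298, 588 and 533 in the secondary samples. Sycp3 fell by 1.29 ± 0.16 in log2 signal (adjusted p = 1.2e-05). Sycp1, of the transverse filament, fell by 0.84 ± 0.18 (adjusted p = 0.0021). Secondary values of Smc1b and Sycp3 lay below every primary value. Of 19 recombination genes only Msh4, of the crossover complex, rose (0.54 ± 0.10, adjusted p = 6.6e-04) and only Exo1, a nuclease, fell (-0.25 ± 0.08, adjusted p = 0.037); for Exo1 the call was lost without primary replicate 2 or 4 or secondary replicate 2 or 3 or 4 (adjusted p from 0.059 to 0.11) and with only the 8 arrays compared in the fit, with all 20 arrays, after scaling to a common median and with eBayes without trend (adjusted p from 0.053 to 0.11). The recombinase Dmc1 was dim at both stages (-0.04 ± 0.23, adjusted p = 0.93).

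The piRNA and small RNA genes, which silence transposons and guide Argonaute proteins, gave 3 rises and 7 falls among 23 tested, with a median near 0. Mov10l1, the RNA helicase that starts piRNA production, read 489, 576, 535 and 528 in the primary samples and 164, 155, 287 and 259 in the secondary samples. Mov10l1 fell by 1.22 ± 0.16 in log2 signal (adjusted p = 1.7e-05). Piwil2, a PIWI Argonaute, read 958, 814, 886 and 889 in the primary samples and 395, 352, 458 and 321 in the secondary samples. Piwil2 fell by 1.16 ± 0.13 in log2 signal (adjusted p = 1.7e-06). The other falls were Ago1 (-0.61 ± 0.17), Drosha (-0.60 ± 0.08), Tdrd5 (-0.46 ± 0.11), Tdrd9 (-0.43 ± 0.12) and Mael (-0.42 ± 0.11). Asz1, a mitochondrial-surface piRNA factor, rose (0.70 ± 0.09, adjusted p = 1.9e-05), as did Tdrd12 (0.45 ± 0.13, adjusted p = 0.041) and Ago3 (0.33 ± 0.09, adjusted p = 0.038). The number of falls was 3 after scaling to a common median, 3 under eBayes without trend, 4 without secondary replicate 1 and 4 without secondary replicate 4; for Ago3 the call was lost without primary replicate 1 or 3 or 4 or secondary replicate 1 or 3 or 4 (adjusted p from 0.077 to 0.12) and with all 20 arrays, after scaling to a common median and with eBayes without trend (adjusted p from 0.091 to 0.22). The number of rises was 1 without primary replicate 1, after scaling to a common median and under eBayes without trend, and 5 with a stricter filter (a signal of 200 on 4 of the 8 arrays).

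Proteins stored for the embryo include the subcortical maternal complex and its Nlrp members. Of 12 tested genes 2 rose, both at least 2-fold, and 1 fell. Nlrp9c read 1824, 2115, 1532 and 1714 in the primary samples and 9203, 7867, 8557 and 9138 in the secondary samples. Nlrp9c rose by 2.26 ± 0.12 in log2 signal (adjusted p = 1.2e-10), and its second probe set rose too (1.31 ± 0.11, adjusted p = 1.5e-07). Nlrp9a read 7619, 7763, 5954 and 6195 in the primary samples and 15036, 12627, 16696 and 14605 in the secondary samples. Nlrp9a rose by 1.10 ± 0.12 in log2 signal (adjusted p = 2.6e-06), and the call was lost with all 20 arrays (adjusted p = 0.095). The Nlrp9 copies resemble each other, so the split between them is uncertain. Padi6, of the cytoplasmic lattices, read 85968 to 87895 in the primary samples and 70556 to 74328 in the secondary samples, a fall (-0.26 ± 0.07, adjusted p = 0.025), and the call was lost without primary replicate 1 or 2 or 3 or 4 or secondary replicate 2 or 4 (adjusted p from 0.057 to 0.095) and with only the 8 arrays compared in the fit, with all 20 arrays, with quantile normalization, after scaling to a common median and with eBayes without trend (adjusted p from 0.051 to 0.45). Nlrp5, the founding member of the maternal complex, was not called (-0.13 ± 0.07, adjusted p = 0.22), but passed with quantile normalization (adjusted p = 0.016).

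Egg surface, fertilization and activation genes gave 6 rises and 2 falls among 25 tested. Oog4, an oogenesin, read 10522, 10499, 11255 and 11677 in the primary samples and 27137, 24391, 25382 and 28842 in the secondary samples. Oog4 rose by 1.26 ± 0.10 in log2 signal (adjusted p = 2.4e-08). Oog3 read 16248, 12972, 9498 and 11553 in the primary samples and 31402, 25515, 29969 and 32282 in the secondary samples. Oog3 rose by 1.26 ± 0.13 in log2 signal (adjusted p = 2.1e-06), with a second probe set at 1.80 ± 0.12, adjusted p = 3.7e-09. Both oogenesins stood clear of the primary samples, and the family's copies may share probes. Izumo1r, the egg receptor of sperm known as Juno, rose (0.46 ± 0.15, adjusted p = 0.035), as did Oosp3 (0.59 ± 0.08, adjusted p = 3.7e-05) and the zinc transporter Slc39a10 (0.38 ± 0.10, adjusted p = 0.024). Oosp1, an oocyte-secreted protein gene, rose by 0.19 (0.19 ± 0.07, adjusted p = 0.045), a call that was lost without 6 of the 8 single samples (adjusted p from 0.066 to 0.14; kept without primary replicate 1 and without secondary replicate 3) and with only the 8 arrays compared in the fit, with all 20 arrays, with quantile normalization, after scaling to a common median, with no filter and with eBayes without trend (adjusted p from 0.054 to 0.59). The tetraspanin Cd81 fell (-0.96 ± 0.23, adjusted p = 0.0047), and so did the ion channel Trpm7 (-0.56 ± 0.15, adjusted p = 0.013), whose groups overlapped. With eBayes without trend 3 members rose.

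Genes that store and decay maternal messenger RNA were called in both directions, at shares near those over all genes. Pabpn1l, a poly(A)-binding protein of the oocyte, read 9387, 10239, 8172 and 7745 in the primary samples and 18798, 18608, 17249 and 13648 in the secondary samples. Pabpn1l rose by 0.94 ± 0.11 in log2 signal (adjusted p = 6.3e-06); the call was lost with all 20 arrays (adjusted p = 0.11). Nanos1, a translational repressor, rose (0.82 ± 0.11, adjusted p = 3.4e-05), and Cpeb1, which controls cytoplasmic polyadenylation, fell (-0.37 ± 0.08, adjusted p = 0.0026). Pum2, a Pumilio repressor, fell (-0.29 ± 0.10, adjusted p = 0.038), and the call was lost without primary replicate 1 or 4 or secondary replicate 1 or 3 or 4 (adjusted p from 0.062 to 0.11) and after scaling to a common median and with eBayes without trend (adjusted p from 0.066 to 0.08). On the decay side, Btg4, the adaptor that brings deadenylase to maternal transcripts, read 11557, 10684, 9140.2 and 11503 in the primary samples and 16391, 14084, 14268 and 15802 in the secondary samples. Btg4 rose by 0.50 ± 0.08 in log2 signal (adjusted p = 8e-05). Tob2 (0.78 ± 0.19, adjusted p = 0.0054) and Cnot8, a deadenylase subunit (0.34 ± 0.08, adjusted p = 0.0046), rose, whereas Zfp36l2, which marks AU-rich transcripts for decay (-0.83 ± 0.14, adjusted p = 2.5e-04), the decapping enzyme Dcp2 (-0.53 ± 0.09, adjusted p = 9.5e-04) and the deadenylase Parn (-0.32 ± 0.09, adjusted p = 0.014) fell. These were 2 rises and 2 falls of 27 storage genes and 3 and 3 of 26 decay genes, against 10.6% and 6.99% over all genes. With the probe set of smallest p for each gene the storage falls numbered 6, the decay rises 6 and the decay falls 5. Zar1 (0.12 ± 0.07, adjusted p = 0.44) and Dppa3 (0.01 ± 0.12, adjusted p = 0.97), 2 maternal-effect genes, were not called.

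The oocyte acquires maternal DNA methylation imprints during growth. Dnmt3l, the cofactor that guides de novo methylation, read 328, 281, 259 and 260.3 in the primary samples and 567, 425, 532 and 498 in the secondary samples. Dnmt3l rose by 0.77 ± 0.12 in log2 signal (adjusted p = 1.1e-04). Zfp445, a zinc finger protein that protects imprints, rose on this probe set (0.80 ± 0.17, adjusted p = 0.0022) and on 430B (0.49 ± 0.09, adjusted p = 0.0023), as did Ctcf, the insulator protein (0.37 ± 0.11, adjusted p = 0.019). The de novo enzymes Dnmt3a (0.29 ± 0.21, adjusted p = 0.37) and Dnmt3b (-0.02 ± 0.12, adjusted p = 0.95) and the imprint protector Zfp57 (0.12 ± 0.13, adjusted p = 0.6) were not called. The maintenance enzyme Dnmt1 was not called on its brightest probe set (-0.10 ± 0.11, adjusted p = 0.6), but fell on 2 others (-0.31 ± 0.10, adjusted p = 0.024 and, on 430B, -0.49 ± 0.09, adjusted p = 0.0018). Uhrf1, the partner of Dnmt1, fell (-0.53 ± 0.15, adjusted p = 0.017); the call was lost without primary replicate 2 or secondary replicate 1 (adjusted p from 0.061 to 0.071). In all 3 of 18 tested rose and 1 fell.

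Of 25 tested imprinted genes 4 rose and 5 fell. Grb10, a growth inhibitor, read 1827, 1486, 1643 and 1516 in the primary samples and 644, 875, 763 and 626 in the secondary samples. Grb10 fell by 1.13 ± 0.13 in log2 signal (adjusted p = 2.4e-06), while a second probe set was not called (0.01 ± 0.30, adjusted p = 0.98). Impact read 546, 565, 519 and 527 in the primary samples and 210.1, 221, 145 and 215 in the secondary samples. Impact fell by 1.33 ± 0.15 in log2 signal (adjusted p = 2.6e-06). Both fell without overlap, as the values show. Copg2 (-1.05 ± 0.26, adjusted p = 0.0074), Peg3, an imprinted zinc finger gene (-0.79 ± 0.10, adjusted p = 1.7e-05), and Gnas, the stimulatory G protein subunit (-0.32 ± 0.09, adjusted p = 0.015), fell as well; for Gnas the call was lost without secondary replicate 4 (adjusted p = 0.054) and after scaling to a common median (adjusted p = 0.055). The rises were Mest (0.70 ± 0.11, adjusted p = 1.4e-04), H13 (0.63 ± 0.10, adjusted p = 1.9e-04), Commd1 (0.67 ± 0.16, adjusted p = 0.0056) and Phlda2 (1.04 ± 0.32, adjusted p = 0.024).

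Chromatin regulators were called at rates from near the background to above it. Polycomb, which keeps genes silent, gave 7 rises and 2 falls among 29 tested, led by Asxl1 (0.65 ± 0.13, adjusted p = 0.0013) and Pcgf1 (0.55 ± 0.12, adjusted p = 0.0026), with Yaf2 (0.58 ± 0.17), Bmi1 (0.43 ± 0.11), Pcgf5 (0.41 ± 0.12), Eed (0.32 ± 0.08) and Phc2 (0.29 ± 0.10). Scmh1 fell (-0.68 ± 0.16, adjusted p = 0.0047), and Ring1 fell with overlapping groups (-1.05 ± 0.36, adjusted p = 0.044), a call lost without 7 of the 8 single samples (adjusted p from 0.058 to 0.14; kept without secondary replicate 4) and with 16 added before log2, with no filter and with eBayes without trend (adjusted p from 0.053 to 0.072). Among 30 enzymes of histone H3 methylation 2 rose and 4 fell. Kdm3a, a histone demethylase, read 99.2, 142, 40.0 and 146 in the primary samples and 251, 250.2, 250.5 and 283 in the secondary samples. Kdm3a rose by 1.15 ± 0.22 in log2 signal (adjusted p = 8.4e-04), and Setdb2 rose on 430B (0.48 ± 0.10, adjusted p = 0.0056), although the call was lost with eBayes without trend (adjusted p = 0.079). The falls were Nsd2 (-1.14 ± 0.20, adjusted p = 7.5e-04), Ehmt2 (-0.83 ± 0.28, adjusted p = 0.044), Setd1b (-0.59 ± 0.14, adjusted p = 0.013) and the demethylase Kdm1a (-0.44 ± 0.10, adjusted p = 0.0045). These falls numbered 2 without primary replicate 2 and without secondary replicate 4.

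Sirt5, a mitochondrial deacylase, read 905, 1111, 903 and 1059 in the primary samples and 2255, 2119, 2197 and 2308 in the secondary samples. Sirt5 rose by 1.14 ± 0.13 in log2 signal (adjusted p = 4.3e-06), and a second probe set rose (0.77 ± 0.13, adjusted p = 8.3e-04). The deacetylases Hdac1 (-0.63 ± 0.11, adjusted p = 3.0e-04) and Hdac6 (-0.44 ± 0.11, adjusted p = 0.0099) fell, which makes 1 rise and 2 falls of 17. Histone genes and their chaperones gave 7 rises and 2 falls of 30. H1f8, the linker histone of the oocyte, read 3772, 4582, 3970.0 and 4270.5 in the primary samples and 6374, 5408, 5528 and 6714 in the secondary samples. H1f8 rose by 0.53 ± 0.11 in log2 signal (adjusted p = 0.0012). H2az2, a histone variant (0.69 ± 0.11, adjusted p = 1.8e-04), and Lsm10, which processes histone transcripts (0.53 ± 0.08, adjusted p = 6.2e-05), rose without overlap too. Set (-0.72 ± 0.12, adjusted p = 2.2e-04) and the macro histone gene Macroh2a1 (-0.59 ± 0.13, adjusted p = 0.0036) fell. The falls among histone genes and chaperones numbered 4 without primary replicate 4 and with the probe set of smallest p for each gene.

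Genes for the later meiotic divisions gave 5 rises and 3 falls of 30, shares not far above those over all genes (10.6% and 6.99%). Mos, the kinase that holds the egg in metaphase, read 5412, 6394, 5745 and 6067 in the primary samples and 9249.6, 8903, 7997 and 9734 in the secondary samples. Mos rose by 0.60 ± 0.08 in log2 signal (adjusted p = 3e-05). Ccnb3, a meiotic cyclin, rose from a dim signal (0.85 ± 0.14, adjusted p = 1.9e-04), with Ccnb2 (0.59 ± 0.10, adjusted p = 3.2e-04), Ccna2 (0.34 ± 0.08, adjusted p = 0.0029) and the kinase Mastl (0.35 ± 0.10, adjusted p = 0.022). Together with the falls of Gnas, of Prkacb, a catalytic subunit of protein kinase A (-0.57 ± 0.18, adjusted p = 0.025), and of the phosphatase subunit Ppp2r1a (-0.29 ± 0.09, adjusted p = 0.031), these were all the called members. The falls numbered 1 without primary replicate 3 and after scaling to a common median, and 0 without secondary replicate 4. For Prkacb the call was lost without primary replicate 1 or 3 or secondary replicate 1 or 4 (adjusted p from 0.052 to 0.078), and for Gnas the call was lost without secondary replicate 4 (adjusted p = 0.054) and after scaling to a common median (adjusted p = 0.055). Gpr3, the receptor that keeps cyclic AMP high in arrested oocytes (0.12 ± 0.14, adjusted p = 0.6), and Pde3a, which breaks cyclic AMP down (0.35 ± 0.30, adjusted p = 0.46), were not called.

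The spindle checkpoint, Aurora kinases and anaphase promoting complex gave 8 rises and 3 falls of 33. Bub1b, the checkpoint kinase BubR1, read 4237, 4420.1, 3998 and 4106 in the primary samples and 8084, 9021, 7696 and 7098 in the secondary samples. Bub1b rose by 0.92 ± 0.08 in log2 signal (adjusted p = 1.8e-07), and a 430B probe set rose alike (0.86 ± 0.08, adjusted p = 3.7e-07). Cdc20, the activator of the anaphase promoting complex, read 762, 1151, 1129 and 878 in the primary samples and 1639.9, 1722, 1632 and 1931 in the secondary samples. Cdc20 rose by 0.82 ± 0.14 in log2 signal (adjusted p = 3.7e-04). The groups of both genes were apart. Aurka (0.54 ± 0.10), Aurkc (0.35 ± 0.10), Birc5 (0.41 ± 0.12), Ttk (0.39 ± 0.09), Sgo1 (0.42 ± 0.11) and Anapc10 (0.54 ± 0.11) were the other rises. Anapc13 (-0.45 ± 0.10, adjusted p = 0.0038), Anapc11 (-0.38 ± 0.09, adjusted p = 0.0066) and Aurkb (-0.39 ± 0.11, adjusted p = 0.02) fell.

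DNA replication genes, though the oocyte does not replicate its DNA at these stages, gave 14 rises and 5 falls of 52, with a median of 0.09. Orc1, a subunit of the origin recognition complex, read 649, 636, 595 and 667 in the primary samples and 1139.6, 1154, 1011 and 1142 in the secondary samples. Orc1 rose by 0.77 ± 0.10 in log2 signal (adjusted p = 1.9e-05). Prim2, of the primase, read 788, 754, 822 and 764 in the primary samples and 1281, 1244, 1176 and 1259 in the secondary samples. Prim2 rose by 0.64 ± 0.10 in log2 signal (adjusted p = 6.3e-05). The rises also held Gmnn (0.56 ± 0.12), Rpa2 (0.52 ± 0.16), Fen1 (0.49 ± 0.13), Orc4 (0.48 ± 0.12) and Cdc6 (0.47 ± 0.16), named after their values were seen. Lig1, the replicative DNA ligase, read 1101, 1168, 1084 and 1185 in the primary samples and 624, 622, 639 and 445 in the secondary samples. Lig1 fell by 0.94 ± 0.14 in log2 signal (adjusted p = 5e-05). Mcm2 (-0.61 ± 0.19, adjusted p = 0.031), Rfc1 (-0.40 ± 0.12, adjusted p = 0.023), Pola1 (-0.38 ± 0.12, adjusted p = 0.029) and Rfc5 (-0.36 ± 0.12, adjusted p = 0.035) fell; for Rfc1 the call was lost without primary replicate 1 or 3 or secondary replicate 1 or 4 (adjusted p from 0.05 to 0.086). The falls numbered 3 without primary replicate 2 or secondary replicate 4 and after scaling to a common median, 2 without primary replicate 3 or 4, and 1 without secondary replicate 1.

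Kinesins, which move cargo and chromosomes along microtubules, gave 4 rises and 6 falls of 39. Kif5c rose on 430A (0.96 ± 0.18, adjusted p = 6.1e-04) and on 430B (1.04 ± 0.12, adjusted p = 9.6e-06), while Kif4, a chromosome-associated kinesin, fell (-0.82 ± 0.13, adjusted p = 9.9e-05), as did the minus-end motor Kifc1 (-0.76 ± 0.14, adjusted p = 6.2e-04). Kifc3 rose with overlapping groups (0.47 ± 0.15, adjusted p = 0.028), and the call was lost without primary replicate 2 or 3 or 4 or secondary replicate 2 or 3 (adjusted p from 0.053 to 0.12). The rises among kinesins numbered 1 without primary replicate 3 or secondary replicate 2 or 3. They numbered 2 without primary replicate 1, 2 or 4 or secondary replicate 4, and also with only the 8 arrays compared in the fit, after scaling to a common median, with no filter and with eBayes without trend. Without secondary replicate 1 the falls numbered 3.

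A list of general actin genes and genes that place the meiotic spindle held more falls than rises. Of 30 tested, 10 fell and 2 rose, against 6.99% and 10.6% over all genes. The median was -0.22 against 0.0072 over all genes. Actg1, cytoplasmic gamma actin, read 11224, 10208, 11236 and 9681 in the primary samples and 6234, 7343, 5759.7 and 5839 in the secondary samples. Actg1 fell by 0.75 ± 0.09 in log2 signal (adjusted p = 4.1e-06). Pfn1, profilin (-0.85 ± 0.15, adjusted p = 3.3e-04), Wasf1, an activator of branched actin (-0.71 ± 0.12, adjusted p = 1.9e-04), Actb, beta actin (-0.64 ± 0.12, adjusted p = 8.8e-04), Wasf2 (-0.52 ± 0.13), Arpc2 (-0.51 ± 0.16), Myh10 (-0.49 ± 0.08), Rhoa (-0.44 ± 0.09), Daam1 (-0.41 ± 0.12) and Pfn2 (-0.32 ± 0.10) were the other falls. The rises were the actin nucleators Spire1, which read 1537, 1932, 2017 and 2353 in the primary samples and 3449, 3043, 3084 and 3493 in the secondary samples (0.74 ± 0.11, adjusted p = 1.3e-04), and Spire2 (0.67 ± 0.18, adjusted p = 0.0094). Fmn2 was not called (-0.09 ± 0.12, adjusted p = 0.67). Between 7 and 12 members fell over the alternatives tried.

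Called ribosomal proteins of the cytoplasm were mostly falls and those of the mitochondrion mostly rises. The shares over all genes were 10.6% rising and 6.99% falling. In the 3731 genes of highest mean signal they were 21.2% and 11.1%. Neither list was tested against genes of like signal. Of 47 cytoplasmic ribosomal proteins, which are abundant, 10 fell and 2 rose, with a median of -0.17. Rps4l read 1847, 2013, 2016 and 1983 in the primary samples and 1326, 1139, 947 and 1008 in the secondary samples. Rps4l fell by 0.82 ± 0.13 in log2 signal (adjusted p = 1.5e-04). Rps19 (-0.57 ± 0.11, adjusted p = 7.7e-04) and Rpl38 (-0.48 ± 0.11, adjusted p = 0.003) fell, and Rpl4 (0.33 ± 0.08, adjusted p = 0.0063) and Rpl7l1 (0.49 ± 0.13, adjusted p = 0.011) rose. For Rpl4 the call was lost with all 20 arrays (adjusted p = 0.052). Without primary replicate 2 the falls numbered 6, and without secondary replicate 2 the rises numbered 4. Transcripts of ribosomal proteins resemble their pseudogenes, and single values are uncertain for that reason.

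Of 76 mitochondrial ribosomal proteins 15 rose and 2 fell, against 10.6% and 6.99% over all genes. Their median was 0.15, and 55 of the 76 had a change above 0. Mrps35 read 495, 603, 557 and 642 in the primary samples and 1066, 872, 856 and 953 in the secondary samples. Mrps35 rose by 0.68 ± 0.11 in log2 signal (adjusted p = 1.7e-04). Mrpl40 read 438, 436, 337 and 453 in the primary samples and 761, 647, 753 and 611 in the secondary samples. Mrpl40 rose by 0.70 ± 0.12 in log2 signal (adjusted p = 4.0e-04). Mrpl43 (0.92 ± 0.29, adjusted p = 0.029) and Mrpl48 (0.72 ± 0.15, adjusted p = 0.0014) rose further than either. Mrpl9 fell (-0.76 ± 0.10, adjusted p = 2.5e-05), while a second 430A probe set was not called (-0.00 ± 0.19, adjusted p = 0.99), and so did Mrps2 (-0.62 ± 0.10, adjusted p = 1.1e-04). Without secondary replicate 1 the rises numbered 9.

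Nuclear genes of oxidative phosphorylation fell more often than they rose: 20 of 77 fell and 4 rose. The shares falling and rising were 6.99% and 10.6% over all genes. They were 11.1% and 21.2% in the 3731 genes of highest mean signal. The median of the list was -0.15, against 0.0072 over all genes, with 20 of the 77 above 0. The list was not tested against genes of like signal. Ndufa1, a complex I subunit, read 9483, 9430.5, 9227 and 8539 in the primary samples and 6929, 6054, 5759 and 6477 in the secondary samples. Ndufa1 fell by 0.54 ± 0.07 in log2 signal (adjusted p = 1.2e-05). Ndufa3 read 2469.9, 2458, 2447 and 2302 in the primary samples and 1391, 1651, 1415 and 1653 in the secondary samples. Ndufa3 fell by 0.66 ± 0.11 in log2 signal (adjusted p = 2.6e-04). Cyc1, cytochrome c1 of complex III, fell (-0.69 ± 0.13, adjusted p = 7.3e-04), as did 5 genes of ATP synthase (Atp5j, Atp5a1, Atp5d, Atp5o and Atp5g3, from -0.44 ± 0.15 to -0.26 ± 0.09) and 4 of cytochrome oxidase (Cox6c, Cox6b1, Cox4i1 and Cox6a1, from -0.36 ± 0.09 to -0.23 ± 0.08). Cox6a2, the heart and muscle form of a cytochrome oxidase subunit, rose (0.92 ± 0.17, adjusted p = 6.1e-04), as did Ndufb1 (0.59 ± 0.12, adjusted p = 0.0019), Uqcrfs1 (0.46 ± 0.16) and Ndufa8 (0.34 ± 0.09). Without primary replicate 2 the falls numbered 13, and with the probe set of smallest p for each gene the rises numbered 7.

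Proteasome genes gave 10 rises and 6 falls of 44. Psmf1, an inhibitor subunit, read 1265, 920.2, 1171 and 1145 in the primary samples and 2037, 1797, 1710.2 and 1980.3 in the secondary samples. Psmf1 rose by 0.73 ± 0.10 in log2 signal (adjusted p = 2.3e-05), and rose on all 3 of its other probe sets. Psme4, a proteasome activator, rose (0.47 ± 0.08, adjusted p = 2.8e-04). Psmb2, a core subunit (-0.58 ± 0.10, adjusted p = 2.3e-04), and Psme3, another activator (-0.87 ± 0.20, adjusted p = 0.0038), fell. The rises numbered 5 without primary replicate 1, 6 without primary replicate 3 and 6 without secondary replicate 4.

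Translation factors showed the same mixture, with 8 rises and 5 falls among 45 initiation factors. Eif6, which keeps ribosomal subunits apart, rose (0.41 ± 0.07, adjusted p = 2.3e-04), and so did Eif2d (0.51 ± 0.11, adjusted p = 0.0022). Eif2s3x, a subunit of initiation factor eIF2 (-0.87 ± 0.18, adjusted p = 0.0015), and Eif4ebp1, the repressor of cap-dependent translation (-0.79 ± 0.17, adjusted p = 0.0019), fell. The rises numbered 5 without primary replicate 1, without secondary replicate 4, and under eBayes without trend, with all 20 arrays fitted, or after scaling to a common median. Of 35 tRNA synthetase genes 3 rose, with Iars (0.38 ± 0.07, adjusted p = 5.2e-04) and Aimp2 (0.42 ± 0.10, adjusted p = 0.0039) first, and 5 fell, with Eprs at -1.32 ± 0.27, adjusted p = 0.0017 and Hars at -0.80 ± 0.12, adjusted p = 6.3e-05 furthest. The rises numbered 5 without secondary replicate 3 and the falls 3 without secondary replicate 1. Of 37 nucleolar genes 4 fell, among them Fbl, fibrillarin, which read 1555, 1404, 1464 and 1354 in the primary samples and 723, 607, 823 and 765 in the secondary samples (-0.96 ± 0.15, adjusted p = 1.1e-04), Heatr1 (-0.76 ± 0.17), Utp15 (-0.67 ± 0.10, adjusted p = 1.3e-04) and Nolc1 (-0.50 ± 0.15). Polr1d, a polymerase subunit (0.46 ± 0.09, adjusted p = 0.0011), and Taf1b (0.45 ± 0.13, adjusted p = 0.023) rose; for Taf1b the call was lost without primary replicate 4 or secondary replicate 2 (adjusted p from 0.056 to 0.068).

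The lysosome and proton pump list had the largest share of falls among the lists with at least 10 members tested: 14 of 38 fell and 2 rose, with a median of -0.19. The shares falling and rising over all genes were 6.99% and 10.6%. The lead of the lysosome list over the Bex and Maged list was small and turned around in some alternatives, such as with only the 8 arrays compared in the fit. Lamp1, a lysosomal membrane protein, read 11899, 11201, 11923 and 11250.3 in the primary samples and 7580.2, 8576, 7458 and 7614 in the secondary samples. Lamp1 fell by 0.57 ± 0.08 in log2 signal (adjusted p = 2.1e-05). Psap, the precursor of saposins, read 3522, 3059, 3289 and 3114 in the primary samples and 1845, 2105, 2064 and 1826 in the secondary samples. Psap fell by 0.72 ± 0.11 in log2 signal (adjusted p = 1.3e-04), although its deposited values have finer decimals than most. Ctsa (-1.37 ± 0.25, adjusted p = 5.4e-04), Lamp2 (-1.20 ± 0.22, adjusted p = 5.3e-04) and Ctsl (-0.98 ± 0.20, adjusted p = 0.0014), a peptidase, a membrane protein and a cathepsin, fell furthest. Ctsh, another cathepsin, went the other way and read 1021, 1198, 1067 and 971 in the primary samples and 3105, 2744, 2313 and 3023 in the secondary samples. Ctsh rose by 1.36 ± 0.13 in log2 signal (adjusted p = 2.6e-07), with a 430B probe set at 1.17 ± 0.10, adjusted p = 8.7e-08. Ctsb rose with overlapping groups (0.41 ± 0.11, adjusted p = 0.011). Between 11 and 16 members fell over the alternatives tried.

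Rab GTPases, which direct membrane traffic, gave 5 rises and 6 falls of 52, or 5 and 10 with the probe set of smallest p for each gene. The rises numbered 3 without secondary replicate 4. Rab38 (0.52 ± 0.09, adjusted p = 5.1e-04) and Rab7, of late endosomes (0.25 ± 0.06, adjusted p = 0.0036), rose, and the early endosome proteins Rab5a (-0.68 ± 0.14, adjusted p = 0.0015) and Rab22a (-0.47 ± 0.11, adjusted p = 0.0047) fell. Nuclear pore and transport genes gave 6 rises and 9 falls of 54. Nup62 (0.43 ± 0.09, adjusted p = 0.0025) and Rae1 (0.49 ± 0.15, adjusted p = 0.023) rose, and the exportin Xpo1 (-0.62 ± 0.11, adjusted p = 3.2e-04), the GTPase Ran (-0.46 ± 0.08, adjusted p = 5.7e-04) and its activator Rangap1 (-1.03 ± 0.22, adjusted p = 0.0022) fell. For Rae1 the call was lost without primary replicate 2 or secondary replicate 1 or 4 (adjusted p from 0.066 to 0.08). The falls numbered 5 without primary replicate 1, and the rises 1 without primary replicate 2, 3 without primary replicate 3, 3 without primary replicate 4, 2 without secondary replicate 1 and 3 without secondary replicate 4.

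Chaperones gave 10 rises and 16 falls of 82. Dnajb4, a co-chaperone of the heat shock protein Hsp70, read 1419, 1290.1, 1307 and 1451 in the primary samples and 3854, 3124, 3444 and 3091 in the secondary samples. Dnajb4 rose by 1.28 ± 0.08 in log2 signal (adjusted p = 1.2e-09), and a second probe set rose (1.45 ± 0.18, adjusted p = 7.1e-06). Dnajc11 (0.46 ± 0.06, adjusted p = 3.5e-05), of the mitochondrial outer membrane, rose as well. Hspd1, the mitochondrial chaperonin, read 3931, 3667, 3530.3 and 3895 in the primary samples and 2428, 2565, 2429.9 and 2455 in the secondary samples. Hspd1 fell by 0.60 ± 0.08 in log2 signal (adjusted p = 1.9e-05). Dnajb9 (-0.79 ± 0.13, adjusted p = 1.4e-04), Pdia3 (-0.79 ± 0.16), Calr (-0.53 ± 0.09) and Hspa5 (-0.29 ± 0.07) fell. These work in the endoplasmic reticulum, as does Pdia6, which rose (0.35 ± 0.08, adjusted p = 0.0033), and as do Canx (-0.20 ± 0.07, adjusted p = 0.06), Hsp90b1 (-0.23 ± 0.16, adjusted p = 0.37) and Pdia4 (0.08 ± 0.17, adjusted p = 0.81), which were not called. Falls were also found for 3 subunits of the chaperonin that folds actin and tubulin (Cct6a, Cct7 and Cct2, -0.48 ± 0.11 to -0.39 ± 0.09), while Cct5 rose (0.25 ± 0.07, adjusted p = 0.012).

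Among the tested fatty acid oxidation and glycolytic genes the largest change was the fall of Hadh. Of 29 tested fatty acid oxidation genes 3 fell and 1 rose: beside Hadh, Acadl (-0.79 ± 0.19, adjusted p = 0.0064) and Acaa1b (-0.47 ± 0.15, adjusted p = 0.034) fell, and the carnitine carrier Slc25a20 rose (0.53 ± 0.18, adjusted p = 0.047), a call lost without 7 of the 8 single samples (adjusted p from 0.059 to 0.13; kept without primary replicate 1) and with no filter and with eBayes without trend (adjusted p from 0.065 to 0.083). Of 22 glycolytic genes 4 rose and 2 fell. Hk2, a hexokinase, read 229.7, 237, 142 and 173 in the primary samples and 467, 333, 357 and 385 in the secondary samples. Hk2 rose by 0.89 ± 0.18 in log2 signal (adjusted p = 0.0015), and Tpi1, triosephosphate isomerase, rose on all 3 of its probe sets (0.81 ± 0.11, adjusted p = 1.7e-05). Pfkp, a phosphofructokinase (0.75 ± 0.16, adjusted p = 0.0024), and the glucose transporter Slc2a1 (0.54 ± 0.17, adjusted p = 0.025) rose too. The brighter phosphofructokinase genes Pfkl (0.08 ± 0.12, adjusted p = 0.7) and Pfkm (0.05 ± 0.11, adjusted p = 0.8) were not called. Aldoa (-0.32 ± 0.09, adjusted p = 0.018) and Pgk1 (-0.30 ± 0.09, adjusted p = 0.027) fell; for Aldoa the call was lost without primary replicate 3 or secondary replicate 3 or 4 (adjusted p from 0.051 to 0.063), and for Pgk1 the call was lost without primary replicate 3 or 4 or secondary replicate 1 or 4 (adjusted p from 0.06 to 0.1) and with all 20 arrays, after scaling to a common median and with eBayes without trend (adjusted p from 0.059 to 0.065).

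Cholesterol synthesis genes gave 3 rises and 5 falls of 20. Idi1 (0.88 ± 0.14, adjusted p = 1.3e-04) and Msmo1 (0.79 ± 0.21, adjusted p = 0.0093) rose, and Sqle, squalene epoxidase (-0.66 ± 0.11, adjusted p = 1.9e-04), and Insig1, which restrains sterol sensing (-0.72 ± 0.13, adjusted p = 0.0012), fell. The remaining called members were Hmgcs1, which rose (0.24 ± 0.08), and Hsd17b7 (-0.56 ± 0.19), Tm7sf2 (-0.38 ± 0.12) and Nsdhl (-0.36 ± 0.09), which fell. The falls numbered 3 without primary replicate 1, 3 or 4 or secondary replicate 4. Cth, which makes cysteine from cystathionine, read 194, 122, 173 and 192 in the primary samples and 498, 495, 490.4 and 497 in the secondary samples. Cth rose by 1.40 ± 0.12 in log2 signal (adjusted p = 9.4e-08), as the single rise among 20 genes of serine and one-carbon metabolism; 3 rose without secondary replicate 3 and with the probe set of smallest p for each gene. Mthfd1l (-0.61 ± 0.13, adjusted p = 0.0052), Mtr (-0.61 ± 0.15), Aldh1l1 (-0.56 ± 0.17) and Ahcy (-0.48 ± 0.12, adjusted p = 0.0062) fell. Of 33 antioxidant genes 3 rose, with Glrx, a glutaredoxin (0.52 ± 0.07, adjusted p = 4.6e-05), first, and 5 fell, with Gsr, glutathione reductase (-1.06 ± 0.20, adjusted p = 7.2e-04), furthest and Sod1 at -0.43 ± 0.07, adjusted p = 9.3e-05. Gpx3 rose (0.41 ± 0.11, adjusted p = 0.013), and the call was lost without secondary replicate 1 (adjusted p = 0.052). The antioxidant falls numbered 3 without primary replicate 4 or secondary replicate 3 and 2 without secondary replicate 2.

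Amino acid transporters were called near the background, with 2 rises and 4 falls of 40. The falls numbered 2 without primary replicate 2 or 3 or secondary replicate 1 or 4 and after scaling to a common median. Slc3a2 and Slc7a5 encode the heavy and light chain of a single exchanger of large neutral amino acids. Slc3a2 read 1466, 1524, 1385 and 1678 in the primary samples and 2622, 2366, 2171 and 2415 in the secondary samples. Slc3a2 rose by 0.65 ± 0.10 in log2 signal (adjusted p = 7.1e-05). Slc7a5 read 789, 521, 587 and 528 in the primary samples and 260.1, 384, 330.1 and 50.6 in the secondary samples. Slc7a5 fell by 1.36 ± 0.35 in log2 signal (adjusted p = 0.0084). The chains went in opposite directions, without overlap in either. Slc6a15 rose from a dim signal (1.20 ± 0.15, adjusted p = 1.2e-05), and Slc38a7 fell (-0.54 ± 0.10, adjusted p = 0.0016). Of 26 zinc transporters and metallothioneins 5 rose, among them Slc30a2 (0.91 ± 0.23, adjusted p = 0.0085) and Slc39a8 (0.83 ± 0.21, adjusted p = 0.0064), and Mt4 fell (-0.57 ± 0.16, adjusted p = 0.013); the call was lost without primary replicate 4 (adjusted p = 0.052). The zinc transporter rises numbered 2 without primary replicate 3 and 3 with the stricter filter. In the Bcl2 family of cell death regulators, Bnip3 (-0.50 ± 0.11, adjusted p = 0.0026) and Bcl2l1 (-0.52 ± 0.16, adjusted p = 0.024) fell, none of 16 rose, and for Bcl2l1 the call was lost without primary replicate 1 or secondary replicate 2 or 4 (adjusted p from 0.068 to 0.091). Without primary replicate 1 or secondary replicate 2, with the stricter filter and with the probe set of smallest p, 1 member of the Bcl2 family rose.

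Some markers of other ovarian cells rose in a pair of lists, while most members of both lists were not called. Over all genes 10.6% rose and 6.99% fell. Among 13 tested granulosa markers 4 rose and none fell, with a median of 0.20. Cyp11a1, the side-chain cleavage enzyme of steroid synthesis, read 156, 219.6, 152 and 309 in the primary samples and 654, 639.9, 356 and 544 in the secondary samples. Cyp11a1 rose by 1.28 ± 0.22 in log2 signal (adjusted p = 8.0e-04). Nr5a2, a nuclear receptor, read 657, 559, 695 and 765 in the primary samples and 938, 1083, 973 and 998 in the secondary samples. Nr5a2 rose by 0.56 ± 0.11 in log2 signal (adjusted p = 0.0012); the call was lost with all 20 arrays (adjusted p = 0.052). Esr2 (0.94 ± 0.26, adjusted p = 0.015) and Gata4 (0.68 ± 0.16, adjusted p = 0.0044) were the others. Foxl2, the brightest of the list and a transcription factor of granulosa cells, was not called (-0.27 ± 0.16, adjusted p = 0.49), nor were the follicle-stimulating hormone receptor Fshr (0.07 ± 0.16, adjusted p = 0.8), the Kit ligand Kitl (-0.05 ± 0.21, adjusted p = 0.92) and the inhibin gene Inhba (0.03 ± 0.38, adjusted p = 0.98). Amh, the granulosa hormone, did not reach the minimum for testing. Among 5 surface epithelium markers Upk3b (1.43 ± 0.27, adjusted p = 7.6e-04) and Krt8 (0.61 ± 0.16, adjusted p = 0.011) rose, and the list's summed 430A signal was 645 to 950.0 in the primary and 968 to 1177 in the secondary samples. Epcam, an epithelial adhesion protein on 430B, went the other way without a call (-1.36 ± 0.47, adjusted p = 0.11), and 1 member fell without secondary replicate 2 and with no filter. With the stricter filter 1 member rose. The part of other cells in the changes of Cdh2, Dab2 and the remaining genes was not tested.

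The later stages show how the called genes went on. The 211 probe sets of 430A that rose at least 2-fold had a median signal of 137 in primary, 396 in secondary, 512 in small antral and 496 in large antral samples. The 148 that fell had medians of 533, 214, 159.7 and 163. On 430B the 200 rises went through 296, 917, 1081 and 995, and the 89 falls through 793, 315, 294 and 246. On 430B the small antral values rest in part on the 3 samples whose protocols give the secondary age and pool, so their stage is uncertain. All tested probe sets had medians of 355, 354, 333 and 337 on 430A. The antral levels did not enter the size of the change from primary to secondary. The antral arrays did count towards the signal needed for testing, however, and all stages share the fit's estimate of spread. The antral values are therefore not independent of the choice of probe sets. In mean ± SD of the small and large antral samples, Fam162b went on to 2730.4 ± 299 and 3144 ± 386 and Tex26 to 7364 ± 685 and 7911 ± 1215. Dab2 went on to 2712 ± 314 and 3599 ± 252, whereas Maged1 reached 16.3 ± 5.44 and 30.1 ± 15.7 and Piwil2 210.4 ± 23.4 and 96.1 ± 10.5. Ctsb turned back to 1279 ± 125 and 1088 ± 63.0.

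Genes with several probe sets gave mostly 1 direction. Of 373 genes with at least 2 called probe sets on 430A, 352 had all of them in the same direction and 21 in opposite ones. Of 85 genes called on both array types, 79 agreed in direction and 6 did not.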

How the data were processed

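Oocytes of 16 samples, 4 of each stage on each array type, were compared. Deposited signals are intensities on a linear scale, made by the authors with MAS5 per the submitters' processing notes; its version and scaling target are not given in the sources used here. A kit for few cells gave the RNA, which was amplified by a small-sample labelling procedure, per the labels' protocols. For this comparison, signals were multiplied so that each array's trimmed mean (2% off each end) was 500, then 32 was added and log2 taken, which understates changes of dim probe sets. Testing required a signal of 100 on at least 4 of 16 arrays, those of the primary, secondary and both antral stages. Fits were made separately for 430A and 430B with limma (version 3.58.1, R 4.3.3; lmFit, eBayes with a trend, two-sided, 12 residual degrees of freedom, no block), and p-values were adjusted by Benjamini-Hochberg within each. The number of arrays limits the precision. Of the stages compared, only the secondary samples on 430A and only the primary samples on 430B carried values for control probe sets. Control ratios could therefore not be compared between the stages. Stage groups come from the titles; for the secondary 430A samples, whose titles name no array type, it comes from the table that holds them.

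On 430A 20380 of 22626 probe sets carried 1 gene symbol, 691 several and 1555 none; on 430B 14565 of 22411, 241 and 7605. Only those with 1 symbol were named. Genes were named by size of change (among called probe sets without overlap, 12 each way on 430A and 6 each way on 430B), as up to 2 members per direction of each of the 49 gene lists with the smallest adjusted p, or from a fixed set of oocyte genes. Other list members were named after their values were seen. The comparison and the lists were chosen with earlier results of these data known. Leaving out each sample, other normalizations, filters and added constants, and fits with other arrays were tried. The procedure was tested on simulated arrays.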

Additional observations from a re-analysis of the deposited data

Results flagged for a closer look

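Among 424 groups of 4 samples, the 2 stages of 212 named probe sets, 30 held a sample whose gap to the nearest other exceeded Dixon's 95% critical value; chance flags about 1 in 20 groups. The numbers below are scaled signals. Primary replicate 1 was above the rest of its group for Psme3 at 763 (the others 657 to 668). Primary replicate 1 was below the rest of its group for Obox2 at 6766 (the others 7917 to 8148) and Pcgf1 at 1605 (the others 1993 to 2059.7). Primary replicate 2 was above the rest of its group for S100a14 at 11.6 (the others 4.96 to 5.95) and Kit at 5071 (the others 4340.1 to 4428). Primary replicate 2 was below the rest of its group for Spire2 at 150.4 (the others 240.1 to 254). Primary replicate 3 was above the rest of its group for H2-D1 at 646 (the others 456 to 482). Primary replicate 3 was below the rest of its group for Mrpl40 at 337 (the others 436 to 453). Primary replicate 4 was below the rest of its group for Ndufa3 at 2302 (the others 2447 to 2469.9), Mrps2 at 1539 (the others 1729.8 to 1751), Cnot8 at 1890.2 (the others 2163 to 2223), Insig1 at 6889 (the others 8642 to 8999) and Zp3 at 21904 (the others 22987 to 23138). Secondary replicate 1 was above the rest of its group for Pde3a at 143 (the others 85.3 to 90.7). Secondary replicate 1 was below the rest of its group for Psme4 at 2341 (the others 2578 to 2622) and Wasf1 at 275 (the others 362 to 379). Secondary replicate 2 was above the rest of its group for Slc38a7 at 2281 (the others 1779.9 to 1822), Lamp1 at 8576 (the others 7458 to 7614) and Kif4 at 3389 (the others 2328 to 2447). Secondary replicate 3 was below the rest of its group for Rimklb at 21.1 (the others 84.4 to 87.0), Arih2 at 611 (the others 981 to 1048), Zfp445 at 449 (the others 514 to 517), Impact at 145 (the others 210.1 to 221), Anapc11 at 568 (the others 681 to 689.9), Orc1 at 1011 (the others 1139.6 to 1154), Cd81 at 59.5 (the others 129.7 to 147), Ran at 6124 (the others 6769.5 to 6882) and Lhx8 at 3323 (the others 3827 to 3877). Secondary replicate 4 was above the rest of its group for Kdm3a at 283 (the others 250.2 to 251). Secondary replicate 4 was below the rest of its group for Lig1 at 445 (the others 622 to 639).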

How the results depend on the processing

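Of 195 named probe sets called, 166 kept their call and direction under all 19 alternatives on 430A and 18 on 430B, 18 lost it under at least 1 alternative other than leaving out a sample, and 11 lost it only without a sample. None reversed. The 3088 calls of 430A ranged from 2502 to 2894 when 1 sample was left out and from 2679 to 3158 under the other alternatives. The 1028 calls of 430B ranged from 777 to 919 without 1 sample and from 764 to 1110 under the others except eBayes without a mean-variance trend, which gave 604 (407 rises and 197 falls, 584 of them among the 1028 with the same direction). The cause was not tested. With arrays scaled to the same median, 549 of 764 calls on 430B were rises, against 644 of 1028. Members called summed over the gene lists, 375 at first, ranged from 306 to 350 without 1 sample and from 315 to 448 otherwise. Same-numbered samples of the stages deviated from their group means with correlations of -0.06 to 0.09 on 430A and -0.04 to 0.01 on 430B, so the numbers were not taken as pairs; with the replicate number as a replicate block, 3103 and 1014 probe sets were called. Leaving out the 100 probe sets of 430A whose values have finer decimals, a choice made after seeing the data, left 3066 calls. The median standard error on 430B limits what could be called there: the smallest called change was 0.26 on the log2 scale, against 0.19 on 430A.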
